A study of Homo sapiens with 12 samples.

Results

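The genes described here are the potassium channel genes of 2 human melanoma lines: 87 of the 18404 genes that carry a single symbol on the array. They are all genes whose symbol begins with KCN and a further letter. KCNG1 and KCNMB3 had more than 1 probe set and are represented by whichever was brightest on average. The genes were thus chosen by symbol and, for those 2 genes, by mean level, and the level of 6 used below was set on the same values. The rule itself uses no difference between groups, but the gene family was picked with earlier results of these data known. By role the 87 comprise 35 pore subunits of voltage gated channels, 16 auxiliary subunits, 15 subunits of 2-pore-domain channels, 13 inward rectifiers, 6 pore subunits of calcium or sodium activated channels and 2 others, the antisense transcript KCNJ5-AS1 and KCNQ1DN. The label "potassium channel genes" holds for most but not all of them, since the auxiliary subunits form no pore and KCNJ5-AS1 codes for no channel.

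Total RNA of the melanoma cell lines A375 (named A375p in part of the labels) and A2058 was hybridised to 12 whole-transcript arrays in 4 groups of 3: A375 with vemurafenib, A375 with DMSO, A2058 with vemurafenib and A2058 with DMSO. Every sample is labelled BRAF V600E, and vemurafenib is an inhibitor of the mutant kinase. Treated cells had 1 µM vemurafenib over 72 h with renewal every 24 h, and control cells an equal volume of DMSO, the solvent; the protocol names only A375p cells but stands on the samples of both lines. Each condition of each line is 1 line in culture, and the labels do not say whether the 3 replicates were separate cultures, so p-values measure the spread between these samples.

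Potassium channels are membrane proteins that let potassium leave or enter the cell and so set the membrane potential. Voltage gated channels open on depolarisation, and calcium activated channels open when cytosolic calcium rises. The 2-pore-domain channels carry a leak current, and inward rectifiers pass current more readily into the cell than out of it. In melanocytes and in melanoma such channels have been studied for their part in cell volume, proliferation, migration and calcium entry, and the inward rectifier KCNJ13 is best known from pigmented epithelium at the back of the eye.

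Promoter sequence is shown for KCNN4, which had the largest fall among the 87 genes in each line, and for KCNJ13, which had the largest rise in A2058. Both stretches are the 250 bases before the gene's start, read 5′ to 3′ on the gene's strand, from RefSeq promoter windows of GRCh38.p14. Both CATGTG and CACGTG were searched in each stretch on either strand, and capitals mark the only match. KCNJ13 held CATGTG, which appears as its reverse complement, and no CACGTG. KCNN4 held CACGTG, which is its own reverse complement, and no CATGTG. Letters of this kind are bound by basic helix-loop-helix factors, the family of MITF and MYC.
KCNJ13: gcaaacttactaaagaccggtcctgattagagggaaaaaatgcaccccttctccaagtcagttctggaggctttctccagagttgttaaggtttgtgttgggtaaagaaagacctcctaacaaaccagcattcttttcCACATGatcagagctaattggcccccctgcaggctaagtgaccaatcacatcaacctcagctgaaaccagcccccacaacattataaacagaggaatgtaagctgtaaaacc
KCNN4: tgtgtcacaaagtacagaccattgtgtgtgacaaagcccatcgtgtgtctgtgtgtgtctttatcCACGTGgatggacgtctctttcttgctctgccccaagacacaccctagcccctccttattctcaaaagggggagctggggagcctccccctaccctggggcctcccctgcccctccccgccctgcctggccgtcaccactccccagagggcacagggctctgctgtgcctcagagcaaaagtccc
The KCNJ13 stretch is chr2:232776566-232776815 on the minus strand, with the first base of the match 112 bases before the start, and the KCNN4 stretch is chr19:43780974-43781223 on the minus strand, with its match 185 bases before the start. Of all 35116 windows of this length, 9.42% hold CATGTG and 6.34% hold CACGTG on either strand. The KCN genes were near these shares: 69 of them had 107 windows, of which 8.41% held CATGTG and 6.54% held CACGTG. A match describes letters and not binding, which these arrays do not measure.

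Few of the genes stood above the dim end of the array. On the deposited log2 scale, a group mean over 6 was reached by 11 of 87 in A375 with vemurafenib, 14 in A375 with DMSO, 13 in A2058 with vemurafenib and 16 in A2058 with DMSO, which is 12.6%, 16.1%, 14.9% and 18.4% of them. Among all 18404 genes the shares were 50.4%, 50.3%, 50.4% and 50.0% in the same order of groups. In at least 1 group 20 KCN genes (23.0%) were over 6, against 54.9% of all genes, and 67 were over 6 in none. For 41 genes even the highest of the 4 group means was under 5. These counts are a description of level, with no test. A level on this scale includes a background that differs between probe sets, so single genes are not compared by level. The part of that background in the shares over 6 was not tested.

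**Figure D1:**
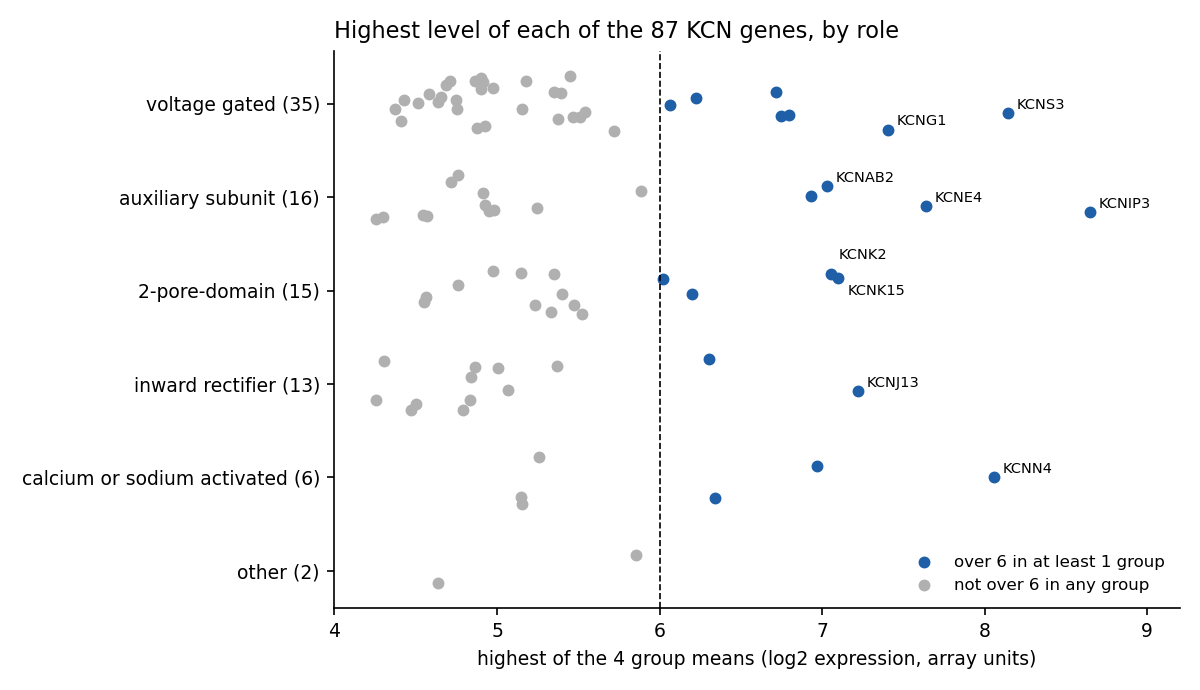
Each point is 1 of the 87 KCN genes, placed by the highest of its 4 group means (log2 expression, array units) and by its role, with the number of genes of that role in brackets; vertical scatter within a row has no meaning. The dashed line is the level of 6, which 20 genes pass (blue) and 67 do not (grey).

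Of the 20 genes, 7 of 35 are voltage gated pore subunits (KCNS3, KCNG1, KCNG4, KCNQ5, KCNG2, KCNC4 and KCND1), 4 of 16 auxiliary subunits (KCNIP3, KCNE4, KCNAB2 and KCNMB4), 4 of 15 subunits of 2-pore-domain channels (KCNK15, KCNK2, KCNK6 and KCNK12), 2 of 13 inward rectifiers (KCNJ13 and KCNJ4) and 3 of 6 calcium or sodium activated pore subunits (KCNN4, KCNN3 and KCNMA1). Nearest to the limit inside it were KCNK12 (highest group mean 6.02), KCND1 (6.07), KCNK6 (6.20) and KCNC4 (6.22), and outside it KCNMB3 (5.89) and KCNQ1DN (5.85). Over 6 in all 4 groups were 9 genes, namely KCNAB2, KCNG1, KCNG2, KCNIP3, KCNJ4, KCNK15, KCNK6, KCNMB4 and KCNS3. KCNG2, KCNJ4 and KCNK15 hardly moved: their group means spanned 0.083, 0.069 and 0.081 over the 4 groups. Together with KCNK6 and KCNK12 they were called in none of the 5 comparisons below.

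**Figure D2:**
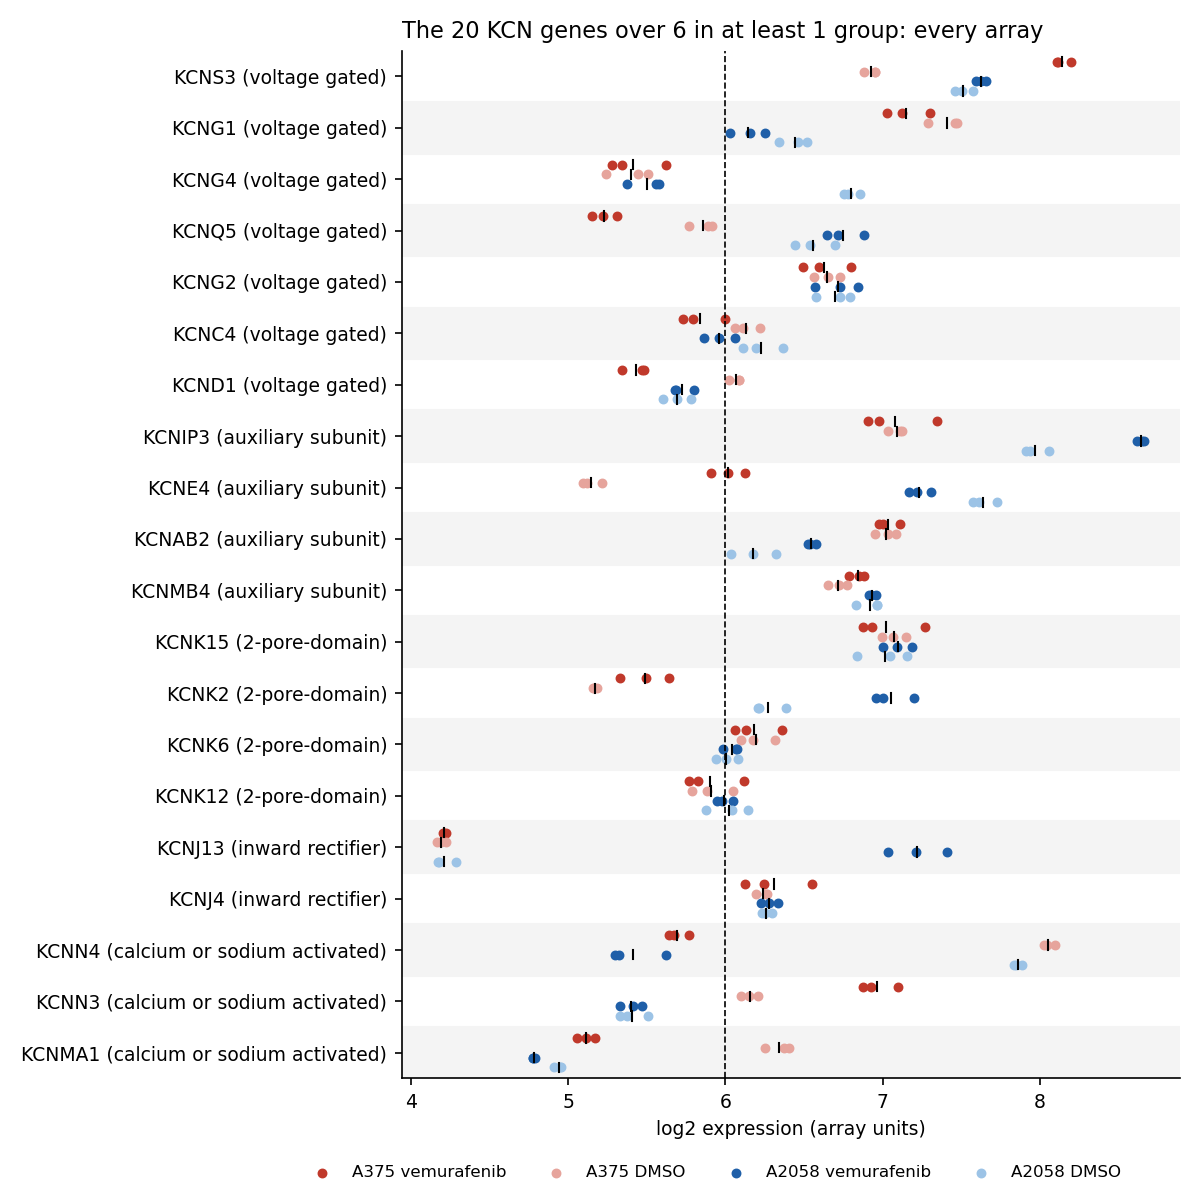
Every array of the 20 KCN genes over 6 in at least 1 group, with log2 expression (array units) along the axis, genes ordered by role, and 1 row of 3 points per group with its mean as a black tick. KCNJ13 lies near 4.2 in 3 groups and between 7.04 and 7.41 in A2058 with vemurafenib, while KCNG2, KCNJ4 and KCNK15 keep their place in all 4.

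Each change given from here on is a difference between 2 group means in log2 units, with its SE, from a single limma model of the 12 arrays and 18404 genes. "Called" means a Benjamini-Hochberg adjusted p under 0.05. A fold is taken between the deposited values. Where one group mean is under 6, its signal may be largely background, and the fold against the level of 6 is given as a lower bound for the genes with the largest changes. Replicate 1 of A375 with vemurafenib was less like its fellows than any other array: across all genes it correlated at 0.9941 and 0.9939 with the other arrays there, which reached 0.9982 with each other, and across the 87 genes at 0.979 and 0.980, against 0.995. Without it, 10 KCN genes in place of 11 were over 6 in that group. The cells carried melanocyte lineage markers: of 6 measured, 2 were over 6 in A375 with vemurafenib and 2 in A375 with DMSO (MITF and SOX10), 6 in A2058 with vemurafenib and 5 in A2058 with DMSO. In A375 the pigment markers PMEL, MLANA, TYR and TYRP1 stayed under 6 in both groups. None of 4 blood and immune markers was over 6, and of 5 markers each there were 2 fibroblast, 2 epithelial, 1 endothelial and 1 neuronal marker over 6 in some group. Some markers of these lists moved with vemurafenib. The keratin KRT18 changed by -1.79 in A375 and -1.41 in A2058, and the endothelial receptor KDR by -0.64 in A2058. Of the 5 fibroblast markers, 2 were called up and 1 down in A375, and 1 down in A2058. These are 60% and 20%, against 37% and 27.1% of all genes. LUM changed by 2.15 in A375 and -0.41 in A2058, and PDGFRA, under 6 in all groups, by -0.49 in A375. The neuronal SNAP25, also under 6 in all groups, changed by -0.54 in A375. SYT1, the neuronal marker over 6, was not called in either line. The part of these markers in the results below was not tested.

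Vemurafenib changed 13 of the 87 genes in A375, 6 up and 7 down, and 10 in A2058, 4 up and 6 down. These are 14.9% and 11.5% of the genes, against 37% and 27.1% of all genes called. Of all genes, 17.7% were called up and 19.3% down in A375, and 14.6% up and 12.5% down in A2058. A change of at least 2-fold was called for 3 genes in each line, while 4.2% of all genes reached it in A375 and 1.98% in A2058. The median absolute change was 0.058 in A375 and 0.033 in A2058, against 0.10 and 0.077 over all genes. Level went with these shares: of the 13 KCN genes with a mean over 6 on the 12 arrays, 46.2% were called in A375 and 46.2% in A2058, against 57.9% and 44.9% of all genes with such a mean. Of the 74 dimmer ones 9.46% and 5.41% were called, against 15.3% and 8.65%. In lysates of whole cultures, fewer cells with a transcript and less of it per cell cannot be told apart. Without A375 vemurafenib replicate 1 the A375 count was 17, 6 up and 11 down, and held all 13, while the share of all genes called was 42.3%.

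Both lines called 6 of the genes (KCNN4, KCNMA1, KCNK2, KCNC4, KCNG1 and KCNE4), 5 with the same sign and KCNE4 with opposite signs. A375 alone called 7 and A2058 alone 4, and the other 70 were called in neither. In the same order these are 6.9%, 8.05%, 4.6% and 80.5% of the KCN genes, against 17.8%, 19.3%, 9.34% and 53.6% of all genes. The difference of the responses itself, A375 minus A2058, was called for 13 genes (14.9%, against 29.5% of all genes), 6 with a positive difference and 7 with a negative one, against 13.1% and 16.4% of all genes. Of the KCN genes 5 differed at least 2-fold, which 4.19% of all genes did, and of those with a mean over 6 on the 12 arrays 38.5% were called, against 46.2% of all such genes. Without A375 vemurafenib replicate 1 the difference was called for 16 KCN genes and 36.1% of all genes.

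**Figure D3:**
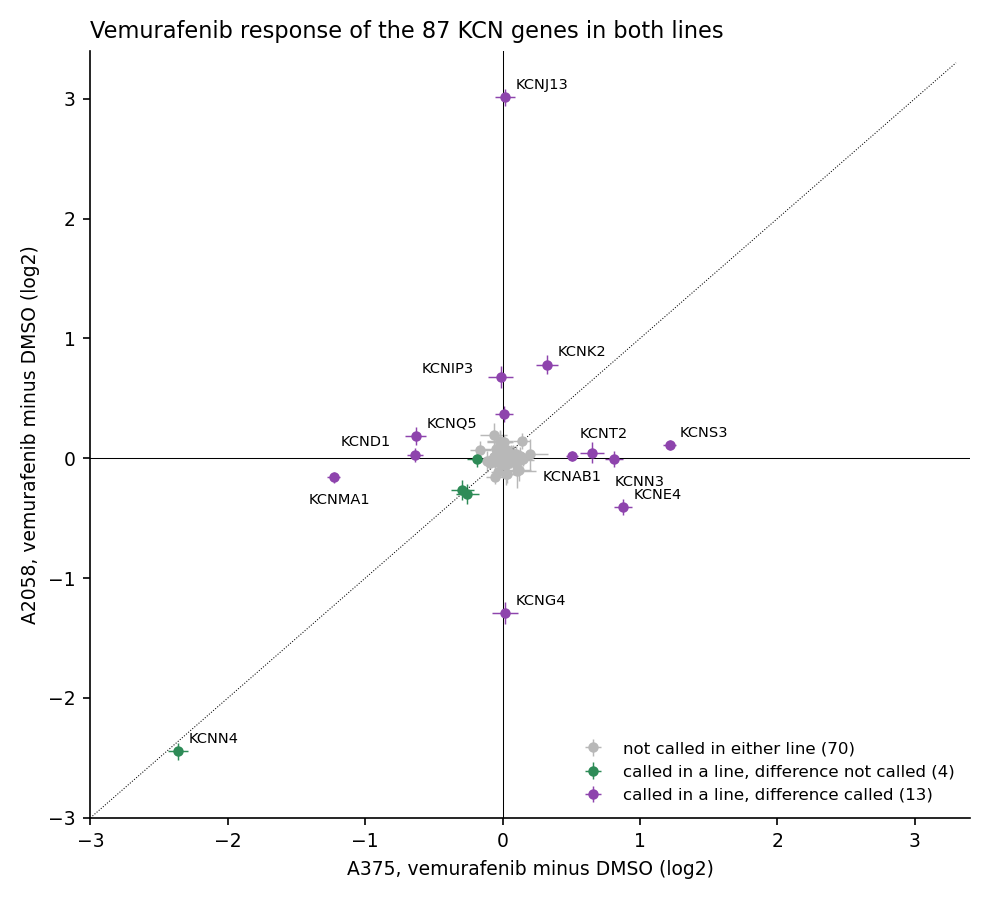
Log2 change with vemurafenib in A375 (horizontal) and in A2058 (vertical) of the 87 KCN genes, with SE bars, 3 arrays per group; the dotted diagonal marks equal responses. KCNN4 lies on the diagonal at the lower left (-2.36 and -2.45), whereas KCNJ13 (3.01 in A2058) and KCNG4 (-1.29 in A2058) lie on the vertical axis and KCNS3 (1.21 in A375) near the horizontal one.

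Among calcium activated channels, KCNN4 codes for the intermediate-conductance channel, known as the Gardos channel of red blood cells and as a channel that sustains calcium entry in activated T cells. In A375 its levels were 5.77, 5.67 and 5.64 with vemurafenib, against 8.10, 8.05 and 8.03 with DMSO. In A2058 they were 5.30, 5.32 and 5.62 with vemurafenib, against 7.89, 7.84 and 7.85 with DMSO. All treated arrays lay far below all DMSO arrays in both lines, and KCNN4 dropped under 6 in both. The change was -2.36 ± 0.073 in A375 (5.14-fold, adjusted p = 4.6e-11) and -2.45 ± 0.073 in A2058 (5.45-fold, adjusted p = 1.14e-10). Against the level of 6, DMSO cells were at least 4.16-fold higher in A375 and at least 3.63-fold higher in A2058. The difference of the responses was 0.083 ± 0.10, with a 95% interval of -0.14 to 0.31 and adjusted p = 0.663; it rests on treated levels that are under 6 in both lines.

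KCNMA1, the pore subunit of the large-conductance channel opened by calcium and voltage, fell in A375 to 5.11, 5.06 and 5.17 with vemurafenib, against 6.25, 6.37 and 6.40 with DMSO. That is a change of -1.23 ± 0.046 (2.34-fold, at least 1.27-fold against the level of 6, adjusted p = 3.16e-10). In A2058 it was dim throughout, at 4.78 on each of the 3 vemurafenib arrays against 4.91, 4.95 and 4.95 with DMSO, and the change of -0.16 ± 0.046 (adjusted p = 0.0212) was small and was lost, at adjusted p of 0.0507 to 0.0654, in 6 of 20 other settings. In both lines every vemurafenib array lay below every DMSO array. The responses differed by -1.07 ± 0.065 (adjusted p = 7.85e-08). Its auxiliary subunit KCNMB4 was over 6 in all groups and was called in neither line (0.12 in A375 and 0.015 in A2058).

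KCNN3, a small-conductance calcium activated channel, went the other way in A375. Its levels there were 6.93, 6.88 and 7.10 with vemurafenib, against 6.21, 6.10 and 6.15 with DMSO, a rise of 0.81 ± 0.066 (1.76-fold, adjusted p = 5.37e-07) with no overlap. In A2058 the means were 5.40 ± 0.070 with vemurafenib and 5.40 ± 0.092 with DMSO (SD, n = 3 each), and the responses differed by 0.82 ± 0.093 (adjusted p = 2.16e-05). The sodium activated channel gene KCNT2 rose in A375 too, by 0.65 ± 0.090 (adjusted p = 6.76e-05), but with all its group means under 6: 4.89, 5.21 and 5.35 with vemurafenib, against 4.42, 4.59 and 4.50 with DMSO, again with no overlap. Of the 6 genes of this role, 4 were called in A375 and 2 in A2058. These are 66.7% and 33.3%, against 37% and 27.1% of all genes. KCNN1 and KCNT1 were called in neither line.

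**Figure D4:**
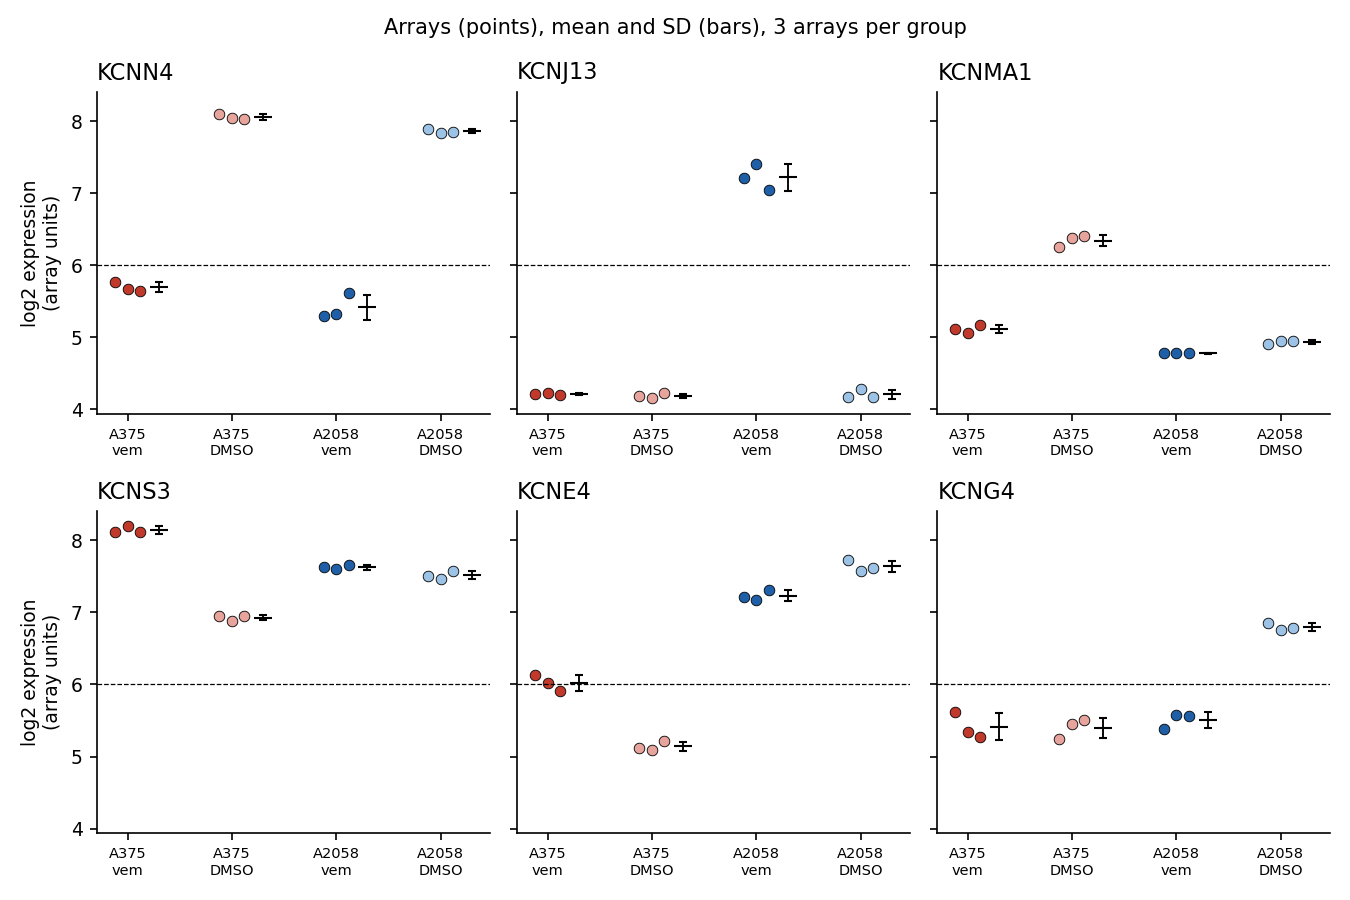
Log2 expression (array units) of 6 KCN genes on each array (points) with the group mean and SD (bars, 3 arrays per group) and the level of 6 as a dashed line. KCNN4 is lower with vemurafenib in both lines, KCNMA1 in A375 and KCNG4 in A2058, while KCNJ13 is over 6 in A2058 with vemurafenib only.

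Of 13 inward rectifiers, KCNJ13 alone was called in either line (0% in A375 and 7.69% in A2058, against 37% and 27.1% of all genes). It codes for a channel of retinal pigment epithelium and other transporting epithelia, and mutations of its zebrafish counterpart alter the pigment pattern of the skin. In A2058 its levels were 7.22, 7.41 and 7.04 with vemurafenib, against 4.17, 4.28 and 4.17 with DMSO. In A375 they were 4.21, 4.22 and 4.20 with vemurafenib, against 4.19, 4.16 and 4.22 with DMSO. It thus stood at the dim end in 3 groups and rose in A2058 by 3.01 ± 0.0735 (8.06-fold, adjusted p = 1.74e-11), which is at least 2.33-fold against the level of 6, with no call in A375 (0.020 ± 0.0735, adjusted p = 0.891). The responses differed by -2.99 ± 0.10 (adjusted p = 4.32e-10).

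Melanocyte lineage markers moved with vemurafenib in A2058 as well: all 6 measured were called up, with a median of 1.53 and 100% called against 27.1% of all genes. In A375 3 of the 6 were called (50%, against 37% of all genes): MITF rose by 0.73, as against 0.73 in A2058, TYRP1 rose by 0.38 and SOX10 changed by -0.15. The mean level over the 6 markers was 9.77 to 9.78 on the A2058 vemurafenib arrays, against 8.15 to 8.23 with DMSO, and 6.27 to 6.39 on the A375 vemurafenib arrays, against 6.07 to 6.18 with DMSO. Their part in the KCNJ13 change was not tested. The other inward rectifier over 6, KCNJ4, was called in no comparison. KCNJ10, a channel of glia and of the melanocyte-like intermediate cells of the inner ear, was under 6 throughout and was called in neither line (0.14 ± 0.065, adjusted p = 0.128, in A375 and 0.14 ± 0.065, adjusted p = 0.138, in A2058). Without A2058 DMSO replicate 3, KCNJ10 was called in A2058 (0.22, adjusted p = 0.018).

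Among voltage gated pore subunits, KCNS3 rose in A375. It codes for an electrically silent subunit that forms no channel alone and modifies KCNB channels. Its levels were 8.11, 8.20 and 8.12 with vemurafenib, against 6.95, 6.88 and 6.95 with DMSO, a change of 1.21 ± 0.044 (2.32-fold, adjusted p = 2.18e-10). In A2058 the arrays held 7.62, 7.60 and 7.66 with vemurafenib, against 7.50, 7.46 and 7.58 with DMSO; the groups do not overlap there either, but the change of 0.11 ± 0.044 was not called (adjusted p = 0.0853). The responses differed by 1.10 ± 0.062 (adjusted p = 3.63e-08).

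KCNG4, another silent subunit, fell in A2058 to 5.38, 5.58 and 5.56 with vemurafenib, against 6.86, 6.75 and 6.78 with DMSO. That change of -1.29 ± 0.093 (2.45-fold, at least 1.74-fold against the level of 6, adjusted p = 3.53e-07) took it under 6, where it already was in A375 at 5.41 ± 0.18 with vemurafenib and 5.40 ± 0.14 with DMSO (SD, n = 3 each). In A2058 the groups do not overlap, and in A375 they do. The responses differed by 1.31 ± 0.13 (adjusted p = 7.37e-06). The related KCNG1 fell by less and in both lines, by -0.26 ± 0.082 in A375 (adjusted p = 0.0257) and -0.30 ± 0.082 in A2058 (adjusted p = 0.0156). Its groups overlap in A375 (7.03 to 7.30 with vemurafenib, against 7.29 to 7.47 with DMSO) and not in A2058 (6.03 to 6.25, against 6.34 to 6.52). Both calls were lost when the 2 probe sets of KCNG1 were averaged (-0.19, adjusted p = 0.137, and -0.17, adjusted p = 0.218) and when single arrays were left out, 4 of them for A375 and 3 for A2058; the A375 call was also lost with only the A375 arrays in the fit (adjusted p = 0.0522).

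KCND1 and KCNQ5 fell in A375. KCND1, a pore subunit of the rapidly inactivating A-type current, was at 5.47, 5.48 and 5.34 with vemurafenib, against 6.09, 6.02 and 6.09 with DMSO, a change of -0.64 ± 0.056 (adjusted p = 1.27e-06). KCNQ5, a pore subunit of the slow M-type current of neurons, was at 5.15, 5.22 and 5.31 with vemurafenib, against 5.89, 5.77 and 5.91 with DMSO (-0.63 ± 0.076, adjusted p = 2.0e-05), under 6 in both. In A2058 neither was called: the change was 0.029 for KCND1 and 0.19 for KCNQ5, whose levels there were 6.72, 6.88 and 6.65 with vemurafenib, against 6.54, 6.44 and 6.69 with DMSO. Both genes had every A375 vemurafenib array below every A375 DMSO array, while their A2058 groups overlap. The differences of the responses were -0.67 ± 0.080 for KCND1 (adjusted p = 3.32e-05) and -0.82 ± 0.11 for KCNQ5 (adjusted p = 6.96e-05).

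KCNC4, a fast channel of the Shaw type, was lower with vemurafenib in both lines by small amounts: -0.29 ± 0.083 in A375 (adjusted p = 0.0139) and -0.26 ± 0.083 in A2058 (adjusted p = 0.0339). The A375 call was lost without A375 DMSO replicate 1 (adjusted p = 0.0651) or A375 vemurafenib replicate 3 (0.0622), and the A2058 call in 5 of 20 other settings, at adjusted p up to 0.155. KCNH1, a channel found in many tumours, KCNH2, the channel of cardiac repolarisation, and KCNQ1, of heart and epithelia, were under 6 in all groups and were not called in either line. Their changes were 0.0066 ± 0.059, 0.0059 ± 0.067 and -0.11 ± 0.087 in A375 and 0.14 ± 0.059, 0.053 ± 0.067 and -0.025 ± 0.087 in A2058. Without A375 vemurafenib replicate 1, KCNQ1 was called in A375 (-0.23, adjusted p = 0.0071). In all, 5 of the 35 voltage gated genes were called in A375 and 3 in A2058. These are 14.3% and 8.57%, against 37% and 27.1% of all genes. Without A375 vemurafenib replicate 1, 7 were called in A375, where 42.3% of all genes were.

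Among auxiliary subunits, KCNE4 was called in both lines with opposite signs. It is a small single-span protein that inhibits several voltage gated channels. In A375 its levels were 6.13, 6.02 and 5.91 with vemurafenib, against 5.12, 5.09 and 5.21 with DMSO, a rise of 0.88 ± 0.063 (1.83-fold, adjusted p = 1.86e-07). The A375 means were 6.02 with vemurafenib and 5.14 with DMSO, so almost none of this fold lies above the level of 6. In A2058 the levels of KCNE4 were 7.22, 7.17 and 7.31 with vemurafenib, against 7.73, 7.58 and 7.62 with DMSO, a fall of -0.41 ± 0.063 (adjusted p = 0.000317). The 2 conditions do not overlap in either line, and the responses differed by 1.28 ± 0.090 (adjusted p = 2.63e-07).

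KCNIP3, a calcium binding partner of A-type channels that is also described as a transcriptional repressor, rose in A2058. Its levels were 8.67, 8.65 and 8.62 with vemurafenib, against 7.92, 8.06 and 7.94 with DMSO (0.68 ± 0.090, adjusted p = 8.8e-05). In A375 the values overlapped, at 7.35, 6.98 and 6.91 with vemurafenib, against 7.04, 7.12 and 7.11 with DMSO, with replicate 1 the highest. The cytoplasmic beta subunit KCNAB2 rose in A2058 by 0.37 ± 0.066 (adjusted p = 0.000924) and was at 7.03 ± 0.072 with vemurafenib and 7.02 ± 0.066 with DMSO in A375 (SD, n = 3 each). The related KCNAB1 rose in A375 by 0.51 ± 0.043 (adjusted p = 9.54e-07) with all levels under 5. For these 3 genes the responses differed as well: -0.69 ± 0.13 for KCNIP3 (adjusted p = 0.00111), -0.36 for KCNAB2 and 0.49 for KCNAB1.

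Among the 15 genes of 2-pore-domain channels, KCNK2 was called up in both lines. It codes for a leak channel opened by stretch, heat and lipids. In A2058 its levels were 6.96, 7.20 and 7.001 with vemurafenib, against 6.22, 6.39 and 6.21 with DMSO (0.78 ± 0.082, 1.72-fold, adjusted p = 1.07e-05). In A375, under 6 in both groups, they were 5.64, 5.33 and 5.49 with vemurafenib, against 5.18, 5.16 and 5.15 with DMSO (0.32 ± 0.082, adjusted p = 0.00708). Treated and DMSO arrays do not overlap in either line. The rise in A2058 was the larger one, with a difference of -0.46 ± 0.12 (adjusted p = 0.00875). KCNK1, a weakly conducting member, was called down in A375 at a low level (-0.19 ± 0.069, adjusted p = 0.048), a call lost in 11 of 19 other settings. No other gene of this role was called in either line. The shares called were 13.3% in A375 and 6.67% in A2058, against 37% and 27.1% of all genes. Without A375 vemurafenib replicate 1, 3 in place of 2 were called in A375, where 42.3% of all genes were.

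The lines themselves were compared under DMSO, and 21 of the 87 genes were called, 11 higher in A375 and 10 higher in A2058 (24.1%, against 46.4% of all genes, 23.9% higher in A375 and 22.5% higher in A2058). Under vemurafenib 21 were called too, again 11 higher in A375 and 10 higher in A2058 (24.1%, against 46.9%, with 22.7% and 24.2% by direction). A difference of at least 2-fold was called for 7 KCN genes under vemurafenib and 4 under DMSO, while 7.23% and 6.37% of all genes had one. Among the genes with a mean over 6 on the 12 arrays, 53.8% of the KCN genes were called under vemurafenib and 61.5% under DMSO, against 70.6% and 70.4% of all such genes. Without A375 vemurafenib replicate 1, 26 KCN genes (52.6% of all genes) were called under vemurafenib and 25 (50.9%) under DMSO. Under DMSO, KCNMA1 was higher in A375 by 1.41 ± 0.046, KCNG1 by 0.97 ± 0.082, KCNAB2 by 0.85 ± 0.066, KCNN3 by 0.75 ± 0.066 and KCND1 by 0.37 ± 0.056. Higher in A2058 were KCNE4 (-2.50 ± 0.063, the values of its arrays given above), KCNG4 (-1.40 ± 0.093), KCNK2 (-1.10 ± 0.082), KCNIP3 (-0.88 ± 0.090), KCNQ5 (-0.70 ± 0.076) and KCNS3 (-0.59 ± 0.044). Adjusted p for these 11 genes lay between 7.21e-12 (KCNE4) and 0.0001 (KCND1). Under DMSO, the A2058 mean was under 6 for KCNMA1 (4.94), KCNN3 (5.40) and KCND1 (5.69). The A375 mean was under 6 for KCNE4 (5.14), KCNG4 (5.40), KCNK2 (5.17) and KCNQ5 (5.86). Only KCNG1, KCNAB2, KCNIP3 and KCNS3 of these 11 were over 6 in both lines. KCNN4 was slightly higher in A375 (0.20 ± 0.073, adjusted p = 0.0423), a call that held in 10 of 20 other settings. Of the genes fixed for naming, KCNH1 (-0.29 ± 0.059) and KCNJ10 (-0.38 ± 0.065) were higher in A2058 at levels under 6.

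Under vemurafenib the order of the lines was turned for KCNS3, which was then higher in A375 (0.52 ± 0.044, adjusted p = 5.15e-07), and for KCND1, then higher in A2058 (-0.29 ± 0.056). KCND1 was then under 6 in both lines, with means of 5.43 in A375 and 5.72 in A2058. KCNN3 was higher in A375 by 1.56 ± 0.066, KCNG1 by 1.01 ± 0.082, KCNAB2 by 0.49 ± 0.066 and KCNN4 by 0.28 ± 0.073. Of these, KCNN4 was under 6 in both lines and KCNN3 was under 6 in A2058 (mean 5.40). Higher in A2058 were KCNJ13 (-3.01 ± 0.0735), KCNIP3 (-1.57 ± 0.090), KCNK2 (-1.56 ± 0.082), KCNQ5 (-1.52 ± 0.076) and KCNE4 (-1.22 ± 0.063). The A375 vemurafenib means of KCNJ13 (4.21), KCNK2 (5.49) and KCNQ5 (5.23) were under 6. The difference for KCNMA1 was 0.34 ± 0.046 and that for KCNG4 was -0.089, the second not called. Both genes were under 6 in both lines under vemurafenib. The comparisons of the lines share their arrays with the vemurafenib comparisons, and each gene's values stand side by side here for that reason.

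**Figure D5:**
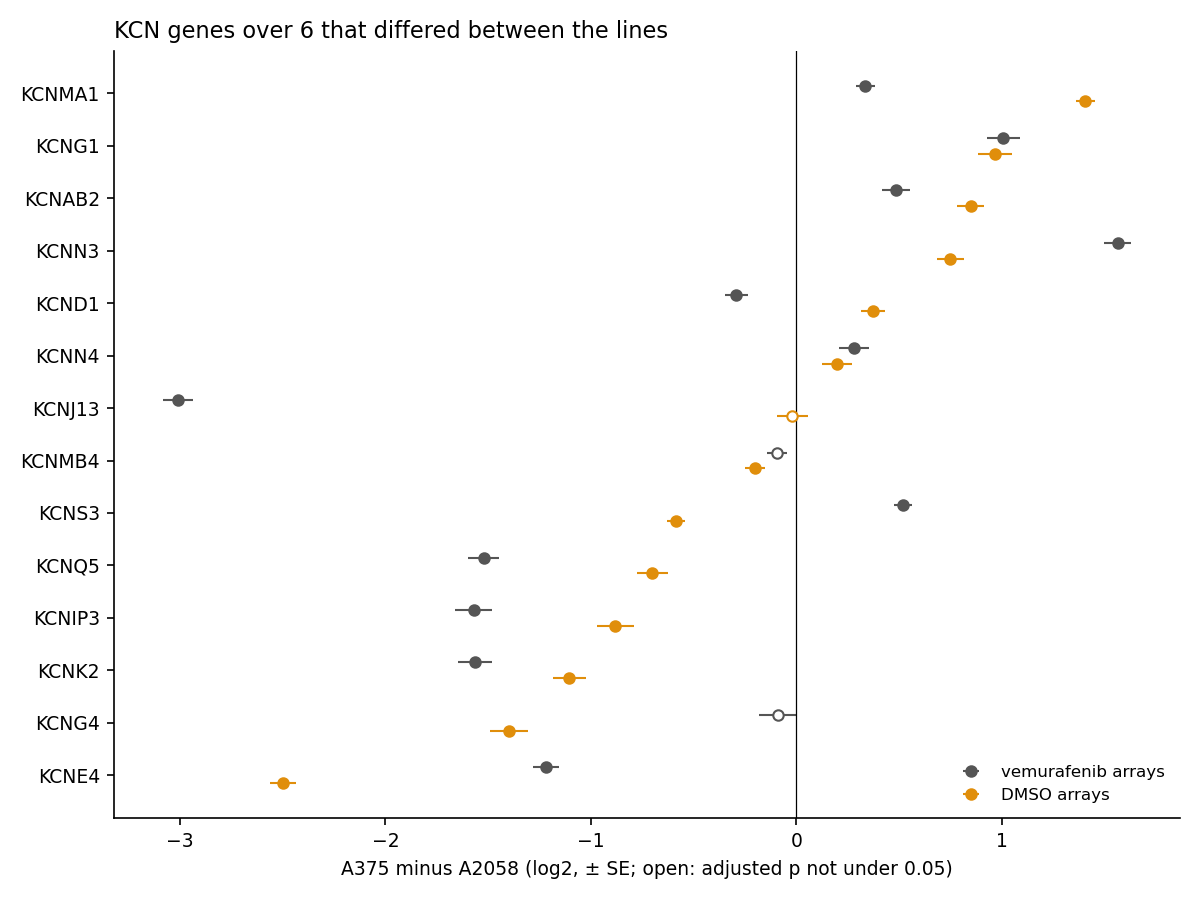
A375 minus A2058 in log2 units, ± SE, under vemurafenib (grey) and under DMSO (orange), for the 14 KCN genes over 6 in some group that were called in at least 1 of these 2 comparisons; open circles were not called. KCNS3 and KCND1 lie on opposite sides of 0 in the 2 conditions, and KCNJ13 is at -3.01 under vemurafenib and near 0 under DMSO.

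Other genes of potassium and ion transport were listed with earlier results of these data known, 42 in all, of which 34 were measured. In A375 4 rose and 3 fell, and in A2058 1 rose and 4 fell; these 20.6% and 14.7% stand against 37% and 27.1% of all genes. Without A375 vemurafenib replicate 1, 4 rose and 7 fell in A375, where 42.3% of all genes were called. The potassium chloride cotransporter SLC12A7 changed by -1.19 ± 0.098 in A375, to 5.93 ± 0.14 with vemurafenib against 7.12 ± 0.23 with DMSO (SD, n = 3 each), and was not called in A2058 (0.19 ± 0.098). ATP1B1, a beta subunit of the sodium pump, rose in A375 by 0.95 ± 0.057 and was not called in A2058 (-0.087 ± 0.057). Its relative ATP1B3 fell in both lines, by -0.43 ± 0.15 in A375 and -0.58 ± 0.15 in A2058, as did the pump regulator FXYD5, by -0.26 ± 0.040 and -0.54 ± 0.040. TMEM175, a potassium and proton channel of lysosomes, rose in both lines, by 0.71 ± 0.058 in A375 and 0.38 ± 0.058 in A2058. SLC12A2, the sodium potassium chloride cotransporter of volume control, was called in both, with 0.42 ± 0.056 in A375 and -0.33 ± 0.056 in A2058.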

How the data were processed

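The deposited values are log2 expression per probe set, made by the authors; R 3.0.1 and affy are named in the submitters' processing notes, and the normalization method is not given in the sources used here. They span 3.24 to 13.08 over 32321 probe sets, with array medians of 5.19 to 5.30. Of the probe sets, 19158 carry 1 symbol in the platform annotation, 1388 several and 11775 none. Symbols were updated through Entrez numbers (19128 matched in RefSeq, GRCh38.p14, used for names only), which changed no KCN gene. The probe set with the highest mean stood for each gene. Left out were 3 KCN probe sets with several symbols (KCNRG with TRIM13, KCNJ18 with KCNJ12). KCNQ1OT1 was not analysed here.

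The values were fitted with limma 3.58.1 (R 4.3.3) as 4 group means over all 12 arrays with no block, and 5 differences were tested two-sided by empirical Bayes, with Benjamini-Hochberg adjustment over 18404 genes and calls at an adjusted p under 0.05. The procedure was tested on simulated data with 50 changed genes of each size, with a run for each vemurafenib comparison. Both runs used the same gene means and the same spread, averaged over the 4 groups. Their shares are therefore not sensitivities of the separate lines. Changes of 0.25 were called for 54% of the changed genes in the A375 run and 36% in the A2058 run. For changes of 0.5 the shares were 86% and 96%, and for changes of 1 they were 100% in each. Far fewer genes changed there than were called here, so these shares need not hold for the real arrays. Small changes can be missed. With 3 arrays per group, the number of arrays limits the precision. Genes were named by a rule: up to 10 called rises and 10 called falls per vemurafenib comparison among genes over 6, up to 3 of each sign among dimmer ones, up to 6 of each sign in the other comparisons, genes near 6 or over it in all groups, and a fixed list. The genes described and all lists were chosen with earlier results of these data known. A planned search for the potassium selectivity filter in protein sequences was not run, because no protein table was used here. The alternatives tried were other fits, filters, probe set rules and levels, and each array left out.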

Additional observations from a re-analysis of the deposited data

Results flagged for a closer look

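The 2 lines responded differently to vemurafenib in 13 KCN genes, by limma's test of the difference of the responses (A375 minus A2058, log2, 3 arrays per group). These are 14.9% of the KCN genes, against 29.5% of all genes. The difference was positive for KCNG4 (1.31), KCNE4 (1.28), KCNS3 (1.1), KCNN3 (0.82), KCNT2 (0.61) and KCNAB1 (0.49). It was negative for KCNJ13 (-2.99), KCNMA1 (-1.07), KCNQ5 (-0.82), KCNIP3 (-0.69), KCND1 (-0.67), KCNK2 (-0.46) and KCNAB2 (-0.36). KCNE4 alone among them was called in both lines with opposite signs, and KCNT2 and KCNAB1 were under 6 in all 4 groups. Groups of 3 arrays are too small for a test of single outlying arrays.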

How the results depend on the processing

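Under 20 other settings, 12 of them with 1 array left out, 1557 values were recomputed: 1507 kept their side of the threshold, 44 lost the call and 6 gained it. The sign turned in 23 of them, all of changes not called in either setting, from 10 named changes near 0 (at most 0.0856 in size). Of 60 called changes of named genes, 53 were called in every setting run. The 7 others are KCNC4 and KCNG1 in each line, KCNK1 in A375, KCNMA1 in A2058 and KCNN4 between the lines under DMSO; the cause was not tested. KCNQ1 became called in A375 and between the lines under vemurafenib with array weights (adjusted p = 0.0109 and 0.0229), and KCNJ10 in A2058 (0.0251). Leaving out single arrays gave 10 to 17 called KCN genes in A375, 7 to 11 in A2058, 13 to 16 for the difference of responses, 20 to 26 between the lines under vemurafenib and 19 to 25 under DMSO; all genes called were 32.8% to 42.3%, 22.7% to 32.3%, 26.6% to 36.1%, 43.5% to 52.6% and 42.5% to 50.9% in the same order. The other fits gave 10 to 15, 9 to 14, 10 to 16, 14 to 24 and 17 to 29 KCN genes, with 25.1% to 50.2%, 17.5% to 38.1%, 18.3% to 40.4%, 33.4% to 61.9% and 33.3% to 61.7% of all genes. With the mean of the probe sets, the difference between the lines in KCNG1 was 0.64 under vemurafenib and 0.66 under DMSO. The level taken as the limit decides how many genes stand over it: at 5 there were 43 in A375 with vemurafenib, 40 in A375 with DMSO, 41 in A2058 with vemurafenib and 41 in A2058 with DMSO, and at 7 there were 5, 5, 6 and 5 in the same order.

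With the replicate number as a block, 12 KCN genes were called in A375, 10 in A2058, 13 for the difference of responses, 21 between the lines under vemurafenib and 21 under DMSO, with 35.9%, 25.9%, 28.0%, 45.7% and 45.2% of all genes. The calls lost were KCNK1 in A375 (adjusted p = 0.0766) and KCNN4 between the lines under DMSO (0.0624). Deviations from the group means of same-numbered arrays correlated at -0.294 to 0.1, and no array correlated best with its own number. With 3 arrays per group these deviations depend on each other, so this cannot show whether same-numbered arrays were handled together. The labels state no pairing.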
